A study of Homo sapiens with 16 samples.

Results

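The baseline transcriptome of HEK293T cells that carry an H2A lentiviral vector was described from the 4 libraries titled H2A with DMSO, which are 4 of the 16 RNA-seq libraries in the series. HEK293T is a human line derived from embryonic kidney and carrying the SV40 large T antigen; the series adds a vector for histone H2A or for a mutant H2A and treats H2A cells with JQ1, a BET bromodomain inhibitor, or pinometostat, a DOT1L inhibitor. The cells described here carried the H2A vector and received no inhibitor: their titles name DMSO, their treatment label lists nothing, and neither gives a time. They grew in DMEM with 10% FBS and antibiotics, and a service provider isolated the RNA and made the libraries. All 16 libraries come from a line that carries a vector, so no library of plain HEK293T cells enters here, and whether the vector-bearing line is a clone or a pool is not stated in the labels. The 4 libraries were chosen by their labels alone.

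The 4 libraries held between 24003378 and 27599686 counts assigned to 57500 annotated genes. A pair of libraries never matched within sampling noise (chi-square per degree of freedom 6.72 to 30.1 over genes), and the correlation of log2 TPM across genes was between 0.980 and 0.988 for the 6 pairs, where genes are not independent replicates. Nothing in the labels says that the 4 came from separate cultures, so the SDs given here measure the spread between libraries, which may be technical. Libraries differed in their balance of long and short genes: genes over 4 kb of exon were 0.09 higher in library 1 and 0.06 lower in library 4 than the 4-library mean (median log2 CPM), while cytosolic ribosomal protein genes fell short of that mean in library 1 and exceeded it in library 4, with median deviations of -0.20 and 0.11. The part of this balance in any level given here was not tested.

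Kidney develops from a metanephric mesenchyme, whose nephron progenitors are held by the transcription factors SIX2, SALL1, EYA1 and WT1 and the cofactor CITED1, and from a ureteric bud that forms the collecting ducts. HEK293 cells and their derivatives are known to express early renal genes beside neuronal ones, and an adrenal origin of the line has been discussed. A cell's protein-synthesis machinery is encoded by genes that share a pyrimidine tract at the first base of the message, the 5′ terminal oligopyrimidine or TOP motif, through which their translation is controlled together.

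Levels are TPM, that is counts divided by the exonic length of the gene and rescaled to the same total in each library, so they can be set side by side between genes. A gene is called expressed when it reached 1 TPM in each of the 4 libraries. By this rule 14683 of 57500 genes (25.5%) were expressed, of which 12246 were protein-coding, 62.0% of the 19737 protein-coding genes. No read was counted in any of the 4 libraries for 26797 genes (46.6%), 2577 of them protein-coding (13.1% of the protein-coding genes). With 0 counts a library of this depth still allows up to 3 counts. Above the threshold the numbers thinned fast: 8030 genes reached 10 TPM in each library, 1314 reached 100 TPM and 115 reached 1000 TPM.

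The start regions of 10 genes are shown first because the features in them recur in the sets described below, and each is named again beside its level. Each line gives 40 bases before and 20 bases from the RefSeq transcription start (GRCh38.p14), 5′ to 3′ on the gene's strand. Capitals mark a pyrimidine tract, defined as a C within 5 bases of the start followed by at least 4 bases that are C or T, or the letters TATAAA between 40 and 20 bases before the start; lines without capitals hold neither. The first 5 genes belong to translation, the next 2 are abundant without being part of it, KRTAP19-1 is the 1 expressed member of its family, IFNB1 had no count, and CITED1 is the highest nephron progenitor marker.
RPL13A (chr19:49487568-49487627, plus strand): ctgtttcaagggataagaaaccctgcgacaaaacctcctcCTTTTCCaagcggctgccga
EEF1A1 (chr6:73521013-73521072, minus strand): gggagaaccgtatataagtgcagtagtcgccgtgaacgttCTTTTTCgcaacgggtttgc
EEF2 (chr19:3985444-3985503, minus strand): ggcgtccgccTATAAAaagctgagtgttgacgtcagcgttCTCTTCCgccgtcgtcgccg
RPS18 (chr6:33272035-33272094, plus strand): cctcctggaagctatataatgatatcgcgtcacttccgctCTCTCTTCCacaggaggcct
RPL35 (chr9:124861938-124861997, minus strand): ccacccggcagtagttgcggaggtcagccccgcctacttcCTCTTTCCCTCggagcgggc
GAPDH (chr12:6535224-6535283, plus strand): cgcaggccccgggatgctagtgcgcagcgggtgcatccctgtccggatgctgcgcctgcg
ACTG1 (chr17:81512780-81512839, minus strand): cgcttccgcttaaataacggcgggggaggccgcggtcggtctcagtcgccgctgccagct
KRTAP19-1 (chr21:30480348-30480407, minus strand): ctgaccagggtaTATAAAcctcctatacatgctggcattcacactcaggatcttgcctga
IFNB1 (chr9:21077923-21077982, minus strand): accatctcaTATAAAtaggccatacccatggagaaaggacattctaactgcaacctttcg
CITED1 (chrX:72307138-72307197, minus strand): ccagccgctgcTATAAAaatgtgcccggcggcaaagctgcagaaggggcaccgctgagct

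The tract began at base 1 in RPL13A, EEF1A1, EEF2, RPS18 and RPL35, with 7 bases in RPL13A, EEF1A1 and EEF2, 9 in RPS18 and 11 in RPL35. Promoter windows from 250 bases before to 50 after the start matched 15256 of the 19737 protein-coding genes (77.3%), and a set was described only where at least 80% of its members had a window. The share over all matched promoters, given as the reference, falls short of that. Of the cytosolic ribosomal protein genes 69 of 86 (80.2%) had one, and 52 of those 69 (75.4%) held the tract, against 22.3% of all matched promoters. Genes with a mean of 10 to 100 TPM held it in 21.5% and genes of 100 to 1000 TPM in 27.6%. The comparison is void for genes of 1000 TPM or more, of which 73.0% matched, and for the bins under 10 TPM, of which 70.0% to 78.2% matched. A match of letters is a description of these windows and says nothing about use of the tract in these cells.

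Ribosomal protein messages and messages of the mitochondrial genome were the most abundant classes. The 13 mRNAs of the mitochondrial genome made up 13.1% ± 0.60 of TPM (SD, n = 4), led by MT-CO1, the catalytic subunit of cytochrome oxidase, at 26426, 24006, 25727 and 25093 TPM in libraries 1 to 4, the highest gene of all. Their share of counts was only 3.82%, because these messages are short and TPM divides by length. The 86 cytosolic ribosomal protein genes made up 17.1% ± 1.22 of TPM (15.6% of counts), and 83 of them were expressed. RPL10L, a retrogene of the large subunit known from testis, was among the 3 that were not, at 0.37 TPM on average.

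RPL13A, a large-subunit protein, was the highest gene outside the mitochondrial genome, at 8931, 11033, 10804 and 9077 TPM. RPL8 followed at 8075 ± 377 TPM and RPS2 at 7750 ± 179.7, and their ranges overlapped in the 4 libraries. EEF1A1, which carries aminoacyl-tRNA to the ribosome, stood at 6393, 6720, 7298 and 7061 TPM, and EEF2, the translocase of elongation, at 5192, 4277, 3975 and 3298 TPM. EEF2 was highest in library 1, where RPL13A was lowest. Of the 20 highest genes outside the mitochondrial genome 14 encode cytosolic ribosomal proteins, 2 are elongation factors and 2 are annotated pseudogenes. The other two are UBB, a polyubiquitin gene, at 4012 ± 294 TPM, and TMSB10, which sequesters actin monomers, at 3381 ± 279 TPM.

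The 2 pseudogenes show a limit of counting by gene. RPL41P1, a processed copy of RPL41 with 81 bases of exon, was listed at 5789 ± 497 TPM, above RPL41 itself at 2351 ± 141, and RPS2P5 at 3718 ± 79.1 TPM. Reads of a near-identical copy cannot be assigned to one gene with certainty, so the levels of RPL41, RPL41P1, RPS2 and RPS2P5 are uncertain.

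**Figure D1:**
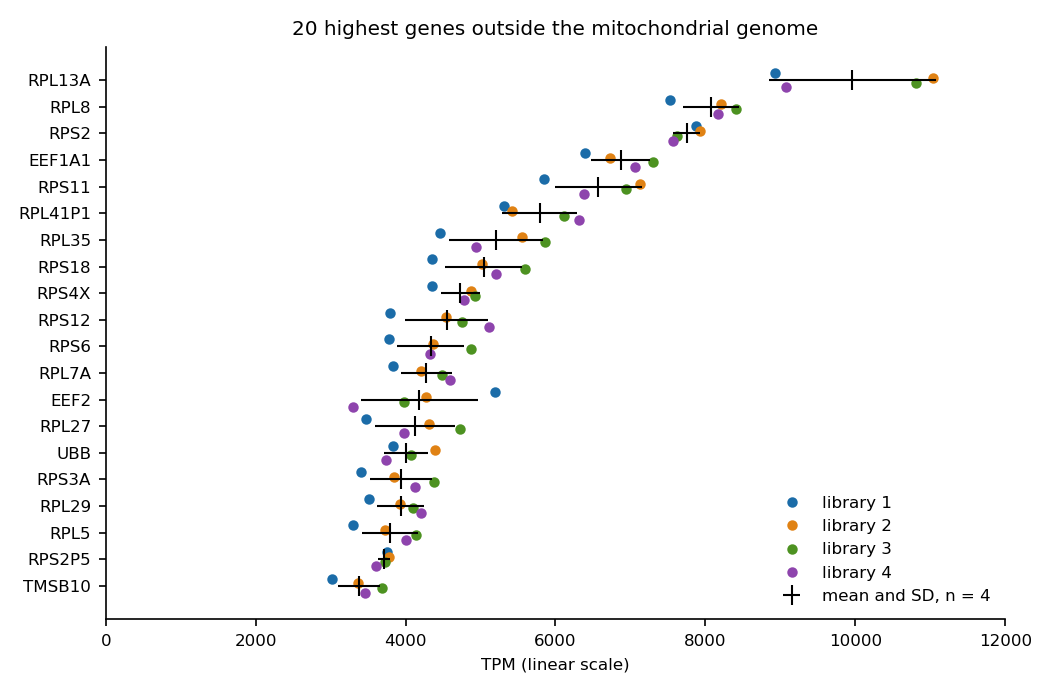
TPM (linear axis) of the 20 highest genes outside the mitochondrial genome, each library as a coloured point and the mean with its SD as a black bar. Most ribosomal protein genes were lowest in library 1, while EEF2 was highest there; RPL13A spanned 8931 to 11033 TPM.

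Other housekeeping classes were expressed nearly in full, against 62.0% of protein-coding genes, and took small shares of TPM. All 38 translation factors, 58 nuclear-encoded subunits of the respiratory chain and ATP synthase, 31 splicing and mRNA-binding proteins and 26 chaperones were expressed, with shares of 2.19% ± 0.059, 2.07% ± 0.10, 1.74% ± 0.029 and 1.25% ± 0.042 of TPM. NPM1, a nucleolar chaperone of ribosome assembly, led the RNA-binding class at 2616 ± 164 TPM, and HSP90AB1, the constitutive cytosolic HSP90, led the chaperones at 1500 ± 152. Glycolytic enzymes made up 1.11% ± 0.055, with GAPDH at 3014 ± 183 TPM and ENO1, enolase, at 2037 ± 145.

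Genes of the cell cycle were expressed throughout: all 30 replication genes and all 25 mitotic genes of the lists were expressed, against 62.0% of protein-coding genes. PCNA, the sliding clamp of DNA polymerase, stood at 865 ± 47.5 TPM and MCM7, a subunit of the replicative helicase, at 472 ± 68.9. CCNB1, the mitotic cyclin, stood at 318 ± 10.6 TPM and UBE2C, which works with the anaphase-promoting complex, at 287 ± 13.5. The replication list made up 0.51% ± 0.017 and the mitosis list 0.31% ± 0.0082 of TPM.

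Lineage markers were read from 18 lists with 222 genes, of which 82 (36.9%) were expressed, against 25.5% of all genes and 62.0% of protein-coding genes. In bulk RNA fewer cells of a type and less RNA per cell cannot be told apart, so a low marker level may belong to a few cells or to all of them. The nephron progenitor list had 11 of 15 members expressed, the mesenchyme list 14 of 18 and the neural progenitor list 9 of 12. The lists for blood, endothelium and adrenal cortex had 1 of 16, 1 of 10 and 1 of 10.

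CITED1, the transcriptional cofactor of the self-renewing nephron progenitor, stood at 301, 271, 299 and 359 TPM. SIX2, which holds those progenitors undifferentiated, stood at 58.2, 48.0, 48.7 and 51.8 TPM. The other expressed members ran from CITED2 at 88.9 ± 13.6 TPM through HOXD11 (35.2 ± 3.73), HOXA11 (35.0 ± 0.83) and SALL1 (20.6 ± 3.54) to EYA1 at 3.00 ± 0.22. WT1 at 4.47 ± 0.31 TPM and PAX2 at 3.52 ± 0.56 were expressed at a low level. PAX8, the paired-box factor of the renal lineage that pairs with PAX2, had 1, 0, 1 and 2 counts in libraries 1 to 4, under the floor of 3 in each. OSR1 at 0.62 ± 0.16 TPM and GDNF, the ligand that draws out the ureteric bud, at 1.03 ± 0.17 were not in the expressed set.

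Genes of the finished nephron were mostly low, and many of their defining members were at 0. UMOD, the marker of the thick ascending limb, SLC12A3, the thiazide-sensitive transporter, and SLC22A6 and SLC22A8, the proximal organic anion transporters, had no count in any library. The proximal tubule list had 2 of 13 members expressed, LRP2, the endocytic receptor megalin, at 5.26 ± 0.69 TPM and GGT1 at 4.09 ± 0.75. AQP2, the vasopressin-regulated water channel of the collecting duct, averaged 0.007 TPM. GATA3, a transcription factor of the ureteric bud, was an exception at 32.7, 27.7, 20.9 and 22.3 TPM, and in the podocyte list PODXL, a surface sialomucin, reached 12.9 ± 1.66 TPM. Among the kidney lists the nephron progenitor list had the largest share of members expressed, 11 of 15, while several defining markers of differentiated tubule segments were at or near 0. Larger shares were expressed of the neural progenitor list, 9 of 12, and of the mesenchyme list, 14 of 18. The lists therefore do not single out a kidney identity. The kidney lists also differ in make-up. The nephron progenitor list holds 14 transcription regulators and 1 other marker, the proximal tubule list 2 and 11, and the loop and distal tubule list 0 and 8. A comparison of these lists is thus also one of regulators with other markers.

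Neuronal genes were expressed in part. UCHL1, a neuronal ubiquitin hydrolase, stood at 284, 294, 302 and 332 TPM, and the neurofilament subunits NEFM at 168, 117, 114 and 88.3 TPM and NEFL at 103, 84.4, 90.1 and 72.2 TPM. NEFM was highest in library 1, and 38.9% of its exonic bases lie within exons of another gene. Of the 20 neuron markers 10 were expressed, among them also the synaptic vesicle gene SYP at 13.99 ± 2.05 TPM, INA at 11.02 ± 1.94, ELAVL2 at 10.3 ± 1.56, GAP43 at 7.65 ± 0.89, MAPT, which encodes tau, at 5.59 ± 1.36 and RBFOX3, which encodes NeuN, at 1.85 ± 0.42. Other neuronal genes, SYN1 at 0.33 ± 0.019 TPM, MAP2 at 0.24 ± 0.027, STMN2 at 0.23 ± 0.13 and DCX at 0.023 ± 0.028 were under the threshold. Among neural progenitor genes MSI1, an RNA-binding protein, reached 70.4 ± 10.6 TPM, SOX2 32.4 ± 2.14 and HES5, a Notch target, 21.5 ± 2.23, while SOX1 had no count.

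Of the mesenchyme markers 14 of 18 and of the simple epithelium markers 8 of 17 were expressed. VIM, the intermediate filament of mesenchyme, stood at 254, 208, 213 and 222 TPM, COL1A1 at 62.5 ± 9.46 and the transcription factors SNAI2 at 47.6 ± 3.69 and TWIST1 at 42.5 ± 3.74. N-cadherin, CDH2, stood at 50.3 ± 5.83 TPM and E-cadherin, CDH1, at 4.76 ± 0.42. The keratins of simple epithelium, KRT18 and KRT8, stood at 52.3 ± 4.57 and 11.1 ± 1.12 TPM. OCLN, a tight junction protein, stood at 8.67 ± 1.05 TPM, CLDN7 at 3.96 ± 0.64, EPCAM at 3.84 ± 0.69 and TJP3 at 1.72 ± 0.18. Of the epithelial splicing regulators ESRP2 stood at 1.98 ± 0.35 TPM and ESRP1 averaged 0.06, and the transcription factor gene GRHL2 averaged 0.005.

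The adrenal lists gave little beyond single factors. NR0B1 at 3.74 ± 0.57 TPM was the only expressed member of 10 for the cortex, where CYP11B1, CYP11B2 and the corticotropin receptor gene MC2R had no count. For the medulla GATA2 reached 26.9 ± 4.58 TPM, HAND2 4.67 ± 0.78 and PNMT, which makes adrenaline, 3.27 ± 0.64, while TH, the first enzyme of catecholamine synthesis, averaged 0.02 TPM and PHOX2A had no count.

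In the lists of more distant lineages few members were expressed, 2 of 12 for muscle, 3 of 10 for intestine and pancreas, 2 of 12 for liver and 2 of 12 for pluripotent and germ cells. NKX2-5, a factor of the early heart, stood at 115, 106, 93.8 and 83.4 TPM, while the contractile genes of the same list, MYH7, TNNT2 and ACTC1, averaged 0.026, 0.013 and 0.007 TPM. MYOD1, a factor of skeletal muscle, was the other expressed member, at 2.41 ± 0.56 TPM. CDX2, a factor of the intestine, stood at 31.1, 26.9, 26.4 and 22.9 TPM. Beside it PDX1, a pancreatic factor, stood at 3.18 ± 0.15 TPM and LGR5, a receptor of intestinal stem cells, at 2.77 ± 0.40, while MUC2 and VIL1 averaged 0.003 and 0.02 TPM and CDX1 had no count. FOXA1 and FOXA3 in the liver list reached 5.94 ± 1.43 and 4.70 ± 0.31 TPM, with ALB at 0.055 ± 0.048 and APOB at 0 counts. LIN28B, which blocks let-7 processing, stood at 34.7 ± 2.08 TPM and UTF1 at 9.54 ± 3.797, whereas NANOG averaged 0.005 TPM and ZFP42 and PRDM14 had no count. In the blood list PTPRC, the pan-leukocyte surface marker, MS4A1 and CD3D had no count.

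Split by role after these values were seen, 39 of the 69 transcription regulators among the lineage markers (56.5%) and 43 of the 153 other markers (28.1%) were expressed, with medians of 3.00 and 0.17 TPM. Both shares lie under the 62.0% of protein-coding genes. In the liver, muscle and adrenal cortex lists every expressed member was a regulator: 2 of 4, 2 of 4 and 1 of 2 regulators were expressed, and none of the 8 other markers in each list. Other lists went the opposite way. No regulator was expressed for simple epithelium (0 of 2), proximal tubule (0 of 2), blood (0 of 2) or endothelium (0 of 1). Their other markers had 8 of 15, 2 of 11, 1 of 14 and 1 of 9 expressed. The division was made on these data and is a description.

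**Figure D2:**
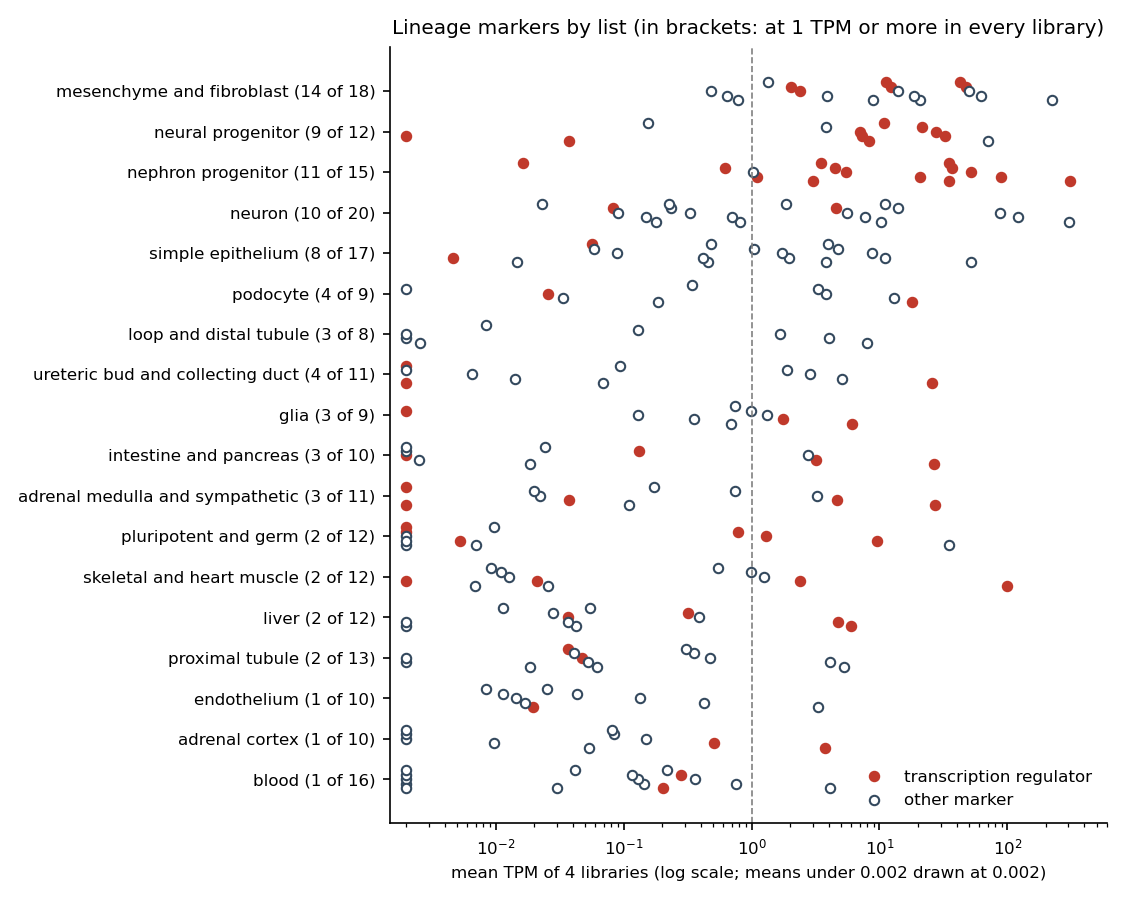
Mean TPM over 4 libraries (log axis) of each marker in the 18 lineage lists, transcription regulators filled and other markers open, with the 1 TPM threshold dashed. Mesenchyme (14 of 18), neural progenitor (9 of 12) and nephron progenitor (11 of 15) markers lie mostly to the right of the line, and the blood list (1 of 16) mostly to its left.

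Receptors, channels and their transducers were read from 16 lists. Of 426 genes 238 (55.9%) were expressed, against 62.0% of protein-coding genes. Of the G protein subunits 10 of 16 alpha and 12 of 17 beta and gamma subunits were expressed, of the adenylyl cyclases 5 of 10, and of the aminergic and muscarinic receptors 6 of 35. GNAS, the alpha subunit that activates adenylyl cyclase, stood at 290, 252, 250 and 240 TPM, above GNAI2 at 36.8 ± 4.11, and the gamma subunit GNG5 at 261 ± 26.8. ADCY3 led the adenylyl cyclases at 26.9 ± 3.41 TPM. GRK6, a receptor kinase, stood at 95.0 ± 9.60 TPM and ARRB2, beta-arrestin 2, at 80.2 ± 4.30, against 11.5 ± 0.80 for ARRB1.

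ADRA2C, an alpha-2 adrenergic receptor, was the highest aminergic receptor at 54.2, 53.02, 48.9 and 43.0 TPM, and the next, the serotonin receptor HTR6, stood at 5.24 ± 1.11. ADRB3, DRD3, DRD5, HTR1A, HTR1E, HTR4 and HTR5A had no count. Receptors for thrombin, lysophosphatidic acid and adenosine had 15 of 36 members expressed (41.7%). That share was above the 17.1% of aminergic and muscarinic receptors but under the 62.0% of protein-coding genes. F2R stood at 38.6 ± 2.53 TPM, LPAR3 at 29.6 ± 1.59 and ADORA2B at 25.9 ± 2.13. P2RY1, a receptor for ADP, stood at 10.6 ± 2.14 TPM, and P2RY10 and P2RY14 had no count.

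Voltage-gated channel genes were low. Of 9 sodium channel genes 3 were expressed, among them SCN4A, the skeletal muscle channel, at 1.53 ± 0.31 TPM and SCN9A at 1.45 ± 0.29, and SCN10A had no count. Of 10 calcium channel genes 2 were expressed, CACNA1H, a T-type channel, at 23.7, 21.5, 17.0 and 12.4 TPM, and CACNA1G at 1.73 ± 0.44. Among 28 potassium channel genes 9 were expressed. Channels opened by other stimuli had 26 of 42 members expressed (61.9%), close to the 62.0% of protein-coding genes. ORAI1, the pore of store-operated calcium entry, stood at 40.9 ± 2.55 TPM. ASIC1, an acid-sensing channel, stood at 33.9 ± 3.60 TPM and PIEZO1, a mechanosensitive channel, at 24.7 ± 7.11. TRPC6 had no count.

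Of the WNT, Notch, Hedgehog and TGF-beta receptors 28 of 31 (90.3%) were expressed, the highest share of the 16 lists, with the WNT co-receptor LRP5 at 55.7 ± 11.5 TPM, SMO at 46.6 ± 4.99 and FZD2 at 43.7 ± 3.31. Of 54 receptor tyrosine kinases 34 (63.0%) were expressed, close to the 62.0% of protein-coding genes, with FGFR3 at 52.96 ± 8.14 TPM, PTK7 at 44.3 ± 5.20 and EPHB4 at 40.1 ± 5.38, against EGFR at 4.16 ± 0.45. Of 48 nuclear receptors 35 (72.9%) were expressed, with NR2F6 at 102 ± 5.95 TPM, RXRB at 57.0 ± 2.88 and ESRRA at 50.01 ± 1.58; the oestrogen receptor gene ESR1 averaged 0.006 TPM.

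Of 29 sensors of nucleic acids and microbes and their signalling partners 10 (34.5%) were expressed, against 62.0% of protein-coding genes. IRF3, the transcription factor at the end of these pathways, stood at 48.2 ± 4.40 TPM, the kinase gene TBK1 at 15.2 ± 2.18 and the adaptor gene MAVS at 14.5 ± 3.78. TMEM173, the gene of the adaptor STING, stood at 5.84, 5.70, 6.18 and 4.43 TPM, while CGAS, the DNA sensor upstream of it, had 2, 1, 2 and 2 counts, under the floor of 3 in each library. TLR2, TLR7, TLR8 and AIM2 had no count, and TLR3 and TLR9 averaged 0.10 and 0.03 TPM. Of 26 cytokine and interferon receptor genes 17 (65.4%) were expressed, a share close to that of protein-coding genes. IFNGR1 was highest at 93.8 ± 18.5 TPM, while IL2RA and CSF2RB had no count.

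Families known from single tissues or cell types were read by their gene symbols. Over 12 such families with 860 genes, 17 (1.98%) were expressed and 726 (84.4%) had no count in any library, against 25.5% and 46.6% of all genes. Among protein-coding genes the same shares were 62.0% and 13.1%. Of 376 olfactory receptor genes 342 had no count and 1, OR1F1, was expressed, between 1.1 and 2.2 TPM. None of 18 late cornified envelope genes had a count. Of 17 type I interferon genes 16 had none, IFNB1 included, and the 1 count fell on IFNE. Of 129 immunoglobulin variable segments 125 had none, and none of 39 beta-defensins or 24 bitter taste receptors was expressed.

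The expressed members of such families were few, and some were far from the threshold. HBQ1, the theta-globin gene in the alpha-globin cluster (chr16:180453-181181, plus strand), stood at 116, 141, 140 and 124 TPM, while HBB and HBG1 had no count and HBA1 averaged 0.76 ± 0.38 TPM. The genes beside the cluster, NPRL3 and LUC7L, stood at 20.5 ± 4.39 and 12.2 ± 0.77 TPM. CRYGD, a gamma-crystallin of the lens (chr2:208121607-208124501, minus strand), stood at 42.0, 42.6, 53.05 and 51.4 TPM, and no other crystallin of the 14 was expressed. KRTAP19-1, a hair keratin-associated protein (chr21:30479699-30480344, minus strand), stood at 17.9, 20.5, 19.7 and 17.8 TPM, and 82 of the 94 genes of its family had no count. CXCL16, a membrane-bound chemokine, led the 3 expressed chemokines of 38, between 10.3 and 14.1 TPM.

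MHC class II was the exception among the 12 families, with 9 of 13 genes expressed (69.2%, near the 62.0% of protein-coding genes). HLA-DRB1 (chr6:32552990-32589848, minus strand) stood at 59.0, 55.8, 62.6 and 48.7 TPM, HLA-DQB1 at 22.5 ± 0.68 and HLA-DPB1 at 13.8 ± 0.91. The partner chains were lower in TPM: HLA-DRA stood at 2.01, 4.42, 1.49 and 2.52 TPM, HLA-DQA1 at 1.00 ± 0.092 and HLA-DPA1 at 9.73 ± 0.52. HLA-DPA1 had more counts than HLA-DPB1, 1857 against 1273 over the 4 libraries, so the order of that pair depends on exonic length. CIITA, the master activator of the class II genes, lay between 0.03 and 0.05 TPM, and the invariant chain gene CD74 between 0.14 and 0.57 TPM. The DNA-binding partners of CIITA at class II promoters, RFX5, RFXANK and RFXAP, stood at 63.2 ± 6.43, 92.5 ± 5.55 and 21.7 ± 1.81 TPM. Class II genes are polymorphic and alike in sequence, so reads may be split between HLA-DRB1 and HLA-DRB5 in ways these counts cannot resolve.

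Promoter windows of the silent families differed from those of genes at 10 TPM and above. A window with at least 55% G and C and an observed over expected CpG ratio of at least 0.65 was found for 79.8% of genes of 10 to 100 TPM, 81.2% of genes of 100 to 1000 TPM and 72.5% of ribosomal protein genes, against 58.2% of all matched promoters. It was found for 0.66% of 304 olfactory receptor promoters for 15.4% of 13 crystallin and 8.33% of 12 MHC class II promoters, and for none of 80 keratin-associated, 17 late cornified envelope, 14 interferon or 20 bitter taste receptor promoters. TATAAA in the upstream window stood in 42.5% of keratin-associated, 29.4% of late cornified envelope and 38.5% of crystallin promoters, in 14.3% of interferon, 5.00% of bitter taste receptor and 1.64% of olfactory receptor promoters and in none of the 12 of MHC class II, against 3.66% of all matched promoters, 1.09% of genes of 10 to 100 TPM and 5.80% of ribosomal protein genes. Of the windows shown above it lies in those of KRTAP19-1, EEF2 and CITED1, which were expressed, and of IFNB1, which had no count. The letters were searched on the gene's strand, both features can stand in 1 promoter, and windows were missing for over 20% of chemokines and beta-defensins, for which the comparison is void.

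**Figure D3:**
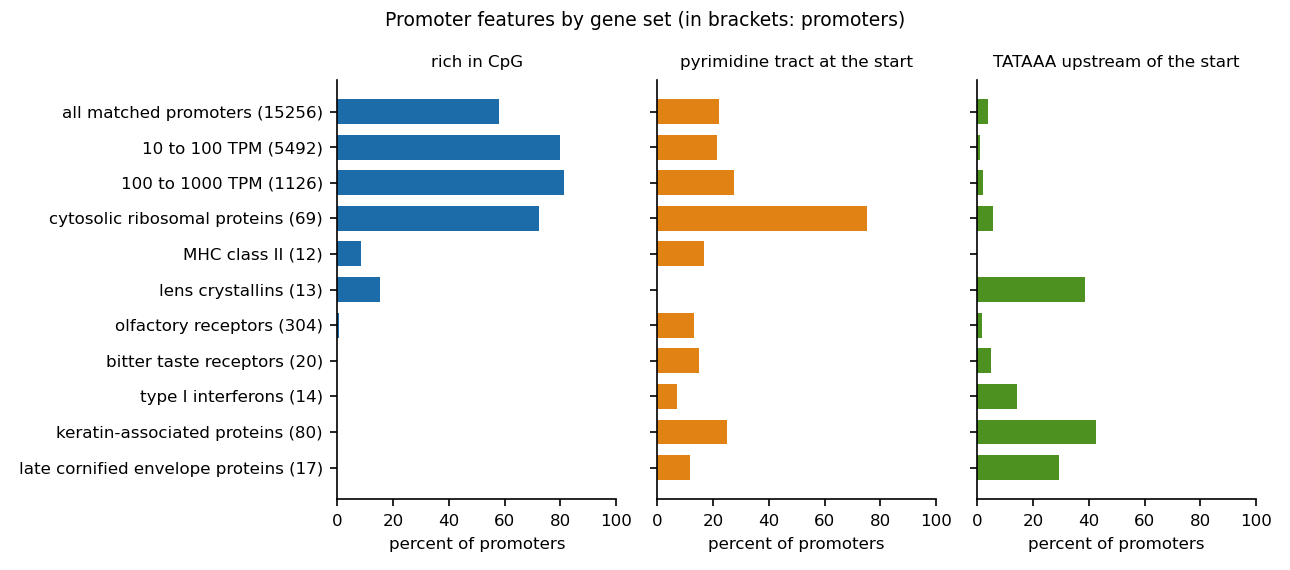
Percent of RefSeq promoter windows rich in CpG, with a pyrimidine tract at the start and with TATAAA upstream, for all matched promoters, 2 ranges of level, ribosomal proteins and 7 families in the silent group. The tract stands out in the ribosomal protein set (75.4%) and CpG-rich windows in the genes of 10 to 1000 TPM (79.8% and 81.2%).

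Families of general cell function lay at the other end. All 78 mitochondrial ribosomal protein genes were expressed, led by MRPS34 at 664 ± 18.6 TPM, and so were 36 of 39 proteasome subunits, 46 of 52 ubiquitin-specific proteases, 34 of 39 kinesins and 388 of 508 genes with a ZNF symbol. The lowest of these shares was the 76.4% of ZNF genes, against 62.0% of protein-coding genes. PSMA7, a subunit of the proteasome core, stood at 729 ± 51.7 TPM, while PSMB8, the inducible subunit of the immunoproteasome, lay between 0 and 0.6 TPM in the 4 libraries. PSMB11, the thymus-specific subunit, had no count. Of the HOX genes 32 of 39 were expressed, HOXD13 at 153, 158, 173 and 144 TPM and HOXB9 at 151, 141, 131 and 136 TPM highest, and their ranges overlapped at the edges of 144.0 and 151.2 TPM.

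Other families were divided. Of 35 MAGE genes 11 were expressed: besides the widely expressed MAGED2 at 189 ± 1.31 TPM and MAGED1 at 131 ± 14.2, the cancer-testis members MAGEA3 and MAGEA6 stood at 123 ± 4.38 and 48.3 ± 1.504 TPM, with near-identical copies that make their split uncertain. PRAME, another cancer-testis gene, stood at 64.0 ± 4.01 TPM, and 26 of the 36 genes of the PRAME and GAGE group had no count. Of 55 keratins 4 were expressed, KRT10 highest at 75.5 ± 17.5 TPM, and of 55 cytochromes P450 16, with CYP51A1, the sterol demethylase, at 23.5 ± 3.14 TPM with 82.2% of its exonic bases in exons of another gene. Of 24 claudins 6 were expressed, CLDN12 highest at 21.6 ± 1.65 TPM. Of 44 collagens 25 (56.8%) were expressed, COL6A1 highest at 111 ± 19.98 TPM, and of 365 solute carriers 207 (56.7%). Both shares were close to that of protein-coding genes. Among the solute carriers SLC25A5, the ADP/ATP carrier, stood at 2307 ± 113 TPM and SLC1A5, a glutamine carrier, at 391 ± 34.7.

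**Figure D4:**
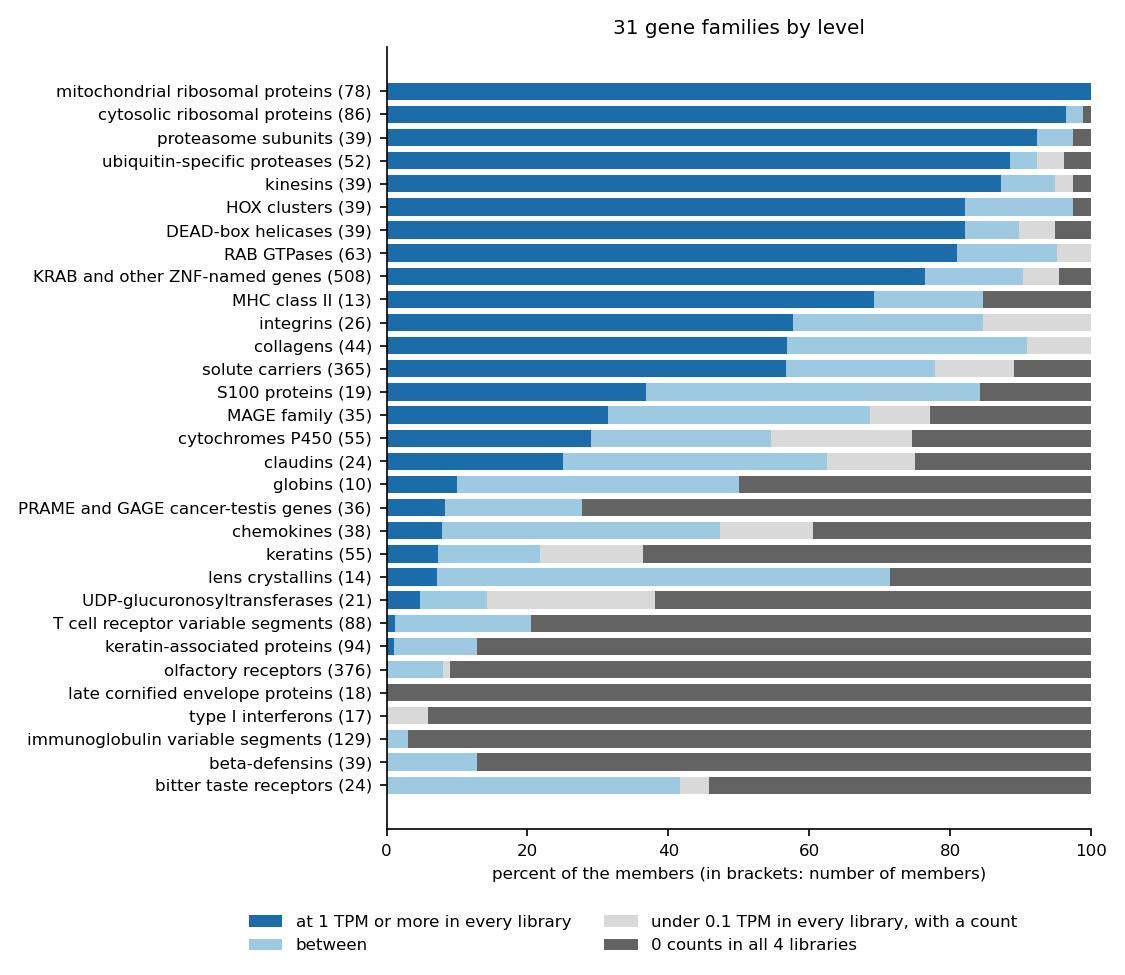
Percent of the members of 31 gene families that were expressed (1 TPM or more in every library), in between, under 0.1 TPM with at least 1 count, or without a count in the 4 libraries. Mitochondrial ribosomal proteins (78 of 78) stand at the top; late cornified envelope genes (18 of 18 without a count) fill the dark end.

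Choice among paralogues was read from 93 families of 2 or more genes, each by the log2 ratio of the highest member over the next within a library. The highest member was chosen from the same values, so its lead is a description; an exact two-sided sign-flip test over 4 libraries could not go below p = 0.13. The same member was first in all 4 libraries in 91 families, the exceptions being LMNB2 over LMNB1 and PRDX5 over PRDX1, first in 3. The lead was at least 2-fold in each library in 59 families and at least 10-fold in 26, and in 12 families a single member was expressed. In 51 families every member was expressed.

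At most of the glycolytic steps listed a single gene held nearly all of its family's TPM, though at some of them another member was expressed too. PKM, the pyruvate kinase outside liver and red cells, stood at 473 ± 33.4 TPM, with PKLR at 0.01 on average; PGK1 at 572 ± 49.0 TPM with no count for the testis copy PGK2; and ENO1 made up 98.4% of enolase and ALDOA 95.3% of aldolase TPM. Hexokinase was shared between HK1 at 62.0 ± 11.05 and HK2 at 44.0 ± 9.81 TPM, whose libraries overlapped. Phosphofructokinase was shared too: all 3 genes were expressed, and the highest, PFKP, made up 47.6% of TPM. LDHB, the lactate dehydrogenase subunit of heart type, stood at 1420, 1445, 1508 and 1609 TPM and LDHA, of muscle type, at 716, 680, 782 and 721, a log2 ratio of 1.04 ± 0.10. Their counts were alike, with a log2 ratio of -0.01 in CPM (counts scaled to the library total, not to length), so the difference in TPM is that of their exonic lengths in the files; with the length of the principal transcript it was 0.64. SLC2A1, the glucose transporter GLUT1, made up 76.9% of its family, and SLC2A2 had no count.

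The translation genes kept a main member beside a copy known from other tissues. EEF1A1 made up 92.6% of its pair, and EEF1A2, known from neurons and muscle, stood at 546 ± 87.7 TPM. RPL3L at 3.19 ± 0.31 TPM and RPL10L at 0.37 ± 0.25 were low beside RPL3 at 3043 ± 177 and RPL10 at 1440 ± 98.5, while RPL22L1 at 149.9 ± 26.9 and RPL39L at 100.1 ± 7.61 TPM reached 30.1% and 4.55% of their pairs. EIF4A2 was listed above EIF4A1 by 2.84 ± 0.10 on the log2 scale, but 48.6% of the exonic bases of EIF4A1 lie within exons of other genes, among them the readthrough gene SENP3-EIF4A1, and how the authors counted such reads is not given in the sources used here, so this order is uncertain.

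Mitochondrial subunits with a tissue copy were expressed from the common one. COX4I1 stood at 462 ± 32.3 TPM and COX6A1 at 1413 ± 98.1, with no count for COX4I2, known from lung, or COX6A2, known from heart and skeletal muscle, and COX7A1 averaged 0.15 TPM. Of the ADP/ATP carriers SLC25A5 stood at 2307 ± 113 and SLC25A6 at 1544 ± 47.7 TPM, SLC25A4, the form of heart and muscle, at 30.2 ± 1.45, and the testis form SLC25A31 had no count. Among beta subunits of the sodium pump ATP1B3 made up 77.5% of TPM.

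In the cytoskeleton ACTG1, gamma-actin, stood at 2896, 2644, 2648 and 2600 TPM and ACTB, beta-actin, at 1559, 1276, 1364 and 1723, a log2 ratio of 0.87 ± 0.20 with no overlap. TMSB10 made up 90.2% of the thymosin beta genes and stood 3.41 ± 0.09 above TMSB4X on the log2 scale. PFN1 made up 87.7% of the profilins. LMNB2 at 143 ± 32.3 and LMNB1 at 126 ± 18.2 TPM overlapped, and LMNA, the lamin of stiff and differentiated tissue, stood at 32.1 ± 4.30.

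Chromatin and cycle regulators mostly had 1 clear leader. SMARCA4, a SWI/SNF ATPase, stood at 117, 82.6, 73.6 and 61.6 TPM and made up 90.8% of its pair with SMARCA2; EZH2, the Polycomb methyltransferase, made up 88.8% of its pair with EZH1, and STAG2 91.6% of the cohesin SA subunits. CCNA2 stood between 147 and 154 TPM, with CCNA1, the germline cyclin, at 0.21 ± 0.081. CDK4 made up 94.4% of its pair with CDK6, though 43.2% of its exonic bases overlap other genes. Among the D cyclins the libraries of CCND2 at 33.2 ± 5.47 and CCND1 at 31.01 ± 5.95 TPM overlapped, with CCND3 at 25.03 ± 1.70. The co-activators EP300 at 16.6 ± 3.93 and CREBBP at 10.5 ± 2.24 TPM overlapped too. LIN28B stood alone, with LIN28A at 0.007 TPM on average. HSPA1B was listed at 251 TPM and HSPA1A at 3.40, a pair of near-identical genes between which reads cannot be divided with certainty.

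Among signalling kinases GSK3A stood 2.17 ± 0.20 above GSK3B on the log2 scale. AKT1 stood 0.43 ± 0.07 above AKT2, with overlapping libraries. At the surface CDH2 made up 84.8% of classical cadherin TPM and GJA1, connexin 43, 82.1% of the connexins listed. CA2, the cytosolic carbonic anhydrase, made up 77.9% of its 15 genes at 282 ± 13.8 TPM, and CA1, the red cell form, had no count.

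Length mattered to the order. CPM reversed the leader in 10 of 93 families and the length of the principal transcript in 8, in 14 families by at least 1 of them and in 4 by both, among them PFKP over PFKL, FTL over FTH1 and PRDX5 over PRDX1. Leads of EEF1A1, TMSB10, SMARCA4, EZH2 and CDH2 kept their direction on both scales.

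**Figure D5:**
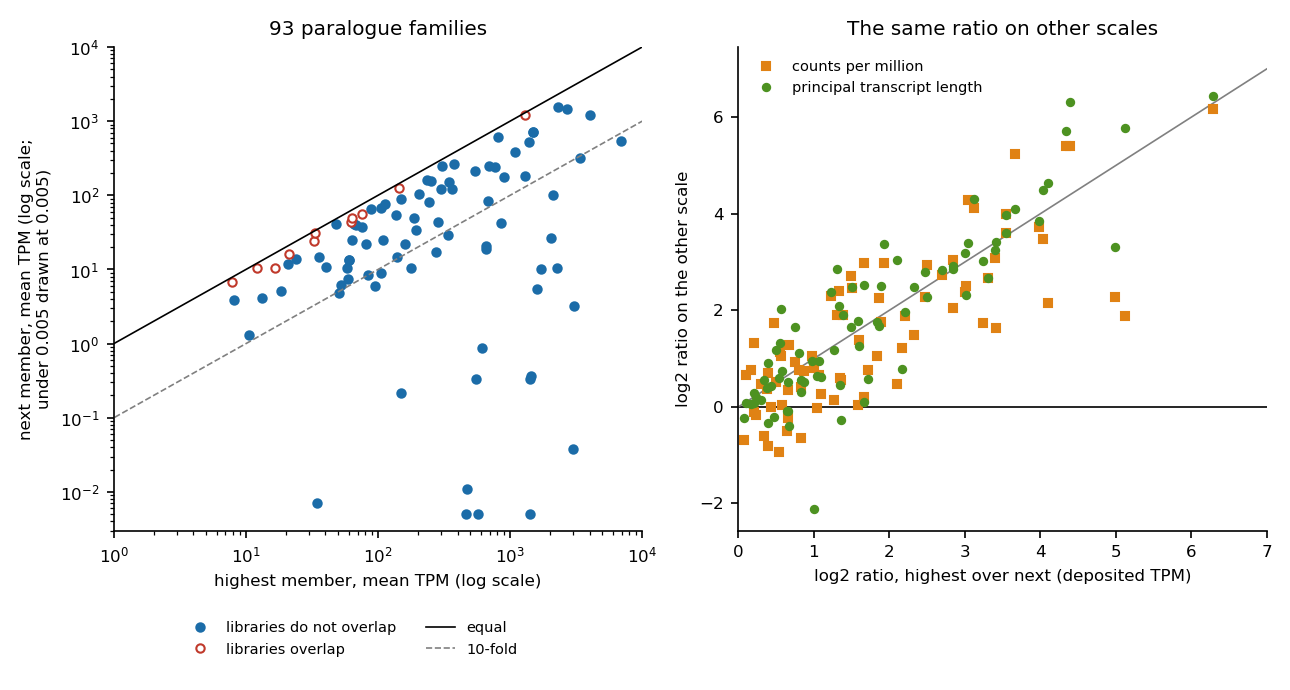
Left, mean TPM of the highest and the next member of 93 paralogue families (log axes), with lines of equality and of a 10-fold lead; open points mark the 11 families whose libraries overlapped. Right, the log2 ratio in deposited TPM (shown up to 7) against the ratio in CPM and with principal transcript length: points under 0 changed order, 10 and 8 of the families.

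The spread between libraries was small for most genes. Over 8624 genes with a mean of at least 10 TPM the median coefficient of variation was 9.32%, against 2.83% from counting error alone, and 96 genes exceeded 30%. That number was 210 without library 2, 184 without library 3 and 53 without library 4. The 10 named genes with the largest spread were short or repeated RNA genes: 8 of them, among them MIR647, MIR25, SNORD83A and MT-TI, rested on 33 to 99 counts in all. RN7SL2, a gene of the signal recognition particle RNA, rested on 7756 counts and stood at 1583, 701, 558 and 340 TPM, a coefficient of 68.6%, and RN7SL3 at 66.2, 30.6, 22.1 and 17.7 TPM. RN7SL genes are near-identical. RN7SL1 had no count, but 100% of its exonic bases lie within exons of another gene on the same strand, and how reads of overlapping genes were counted is not known here; the share of RN7SL RNA in a library can depend on how RNA was selected, which is not given in the sources used here.

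With at least 100 counts in each library as a further condition 49 genes exceeded 30%, and the named ones were mostly protein-coding. CHCHD10, a mitochondrial intermembrane protein, stood at 150, 172, 223 and 384 TPM and EBPL at 69.0, 98.2, 133 and 197.5 TPM. CHAC1, which degrades glutathione, stood at 51.3, 63.3, 40.3 and 107 TPM, DDIT3, the stress factor CHOP, 28.0% of whose exonic bases overlap another gene, at 42.4, 64.8, 43.5 and 92.4 TPM and CEBPB at 54.3, 57.3, 58.9 and 113 TPM. Each of these 5 genes was highest in library 4. MALAT1, a nuclear RNA, was highest in library 1, at 45.2 TPM against 20.3 to 31.4 in the others.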

How the data were processed

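Total RNA of 16 samples was sequenced, and the 4 labelled H2A with DMSO were used; the 12 other libraries were not analysed here. Raw counts and TPM are given per gene in the deposited tables; the counts of the series table and of the single libraries were identical in all 230000 values, and the deposited TPM equalled counts divided by the exonic length in the files, rescaled. For aligner, counter, strand setting, library selection and build: not given in the sources used here. Positions are those of the deposited files; 96.3% of shared identifiers have the same start and end in GENCODE 29 (GRCh38). Exon overlap and principal (APPRIS) transcript lengths were taken from that release. Promoter sequences are from RefSeq (GRCh38.p14).

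Of 1185 list symbols 1184 matched. Expressed means at least 1 TPM in each library; ratios used a pseudocount of 0.01 TPM; a count of 0 allows 3 counts, and this covers counting error only. There was no comparison between groups and no test across genes. Named genes were the 20 highest, the 3 highest of each list, members with no count, the leaders of paralogue families and the 10 largest coefficients of variation; some genes the rule covers are not reported here, and others named, such as genes of neighbouring function, were chosen after their values were seen. Members and lists were chosen with earlier results of these data known. Alternatives were other thresholds, CPM, TPM without the mitochondrial genome, each library left out, principal transcript length and a count minimum, the last 2 added after seeing the data. Python 3.11.15, numpy 2.4.6 and pandas 2.3.3 were used, and the spread statistic was tested on simulated counts.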

Additional observations from a re-analysis of the deposited data

Results flagged for a closer look

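Chance alone sets a library apart from the others by most of the range in about 1 gene in 20. Of 214 named genes with a mean of at least 1 TPM, 11 (5.14%) were flagged in this way, a share close to that of chance. Library 1 stood apart in 4 of them: ACTG1 was high at 2896 TPM, PNMT was high at 4.24 TPM, CCNB1 was low at 302 TPM and H2AFZ, the gene of the variant histone H2A.Z, was low at 1293 TPM. Library 2 was high for HOXD11 at 40.7 TPM, for MAGEA3 at 129 TPM and for MIR25 at 24.2 TPM, the last on few counts. Library 3 was low for LPAR3 at 27.3 TPM and for MAGED2 at 187 TPM. Library 4 was high for IFNGR1, a chain of the interferon-gamma receptor, at 121 TPM and for CEBPB at 113 TPM.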

How the results depend on the processing

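No paired analysis was possible because a single group was described. The number of lineage markers expressed was 46 at a threshold of 5 TPM, against 82, and that of members of the silent families was 29 at 0.5 TPM and 10 at 5 TPM, against 17. The ribosomal protein share was 15.6% of counts and 20.2% of TPM without the mitochondrial genome, and the share of mitochondrial mRNAs 3.82% of counts. Genes with a coefficient of variation over 30% numbered 49 with at least 100 counts in each library, and from 53 to 210 with a library left out. In CPM the log2 ratio changed sign, among others, for LDHB over LDHA (-0.013), PFKP over PFKL (-0.22), PIK3CD over PIK3CB (-0.10), HMGB2 over HMGB1 (-0.94), IGF2BP2 over IGF2BP1 (-0.60), FTL over FTH1 (-0.82), PRDX5 over PRDX1 (-0.69) and TEAD4 over TEAD2 (-0.16). With principal transcript length it did so, among others, for PFKP (-0.091), ATP5MC2 over ATP5MC1 (-0.39), CALM3 over CALM2 (-0.27), NRAS over HRAS (-0.21), CSNK2A1 over CSNK2A2 (-2.11), FTL (-0.33) and PRDX5 (-0.22). These ratios change by construction with the length that divides the counts. No lead changed sign with a library left out. At this depth a gene with no count may still be present under 3 counts in a library.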

Other observations

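Of the MHC class I genes HLA-C stood at 473 ± 20.03 TPM and HLA-B at 193 ± 14.3, and B2M, the shared light chain, at 105 ± 7.12. Class I genes are alike in sequence, so the split of reads between them is uncertain. Of 24 genes that encode entry receptors for viruses and vectors 19 (79.2%) were expressed, against 62.0% of protein-coding genes. BSG was highest at 729 ± 36.0 TPM, and NECTIN2 stood at 102 ± 13.5. HAVCR1 had no count.

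Of 17 replication-dependent histone H2A genes 9 were expressed, against 62.0% of protein-coding genes. HIST3H2A stood at 199.9 ± 18.6 TPM and HIST2H2AC at 27.4 ± 5.37, while the variant genes H2AFZ and H2AFX stood at 1404 ± 74.5 and 337 ± 29.6. To which of these genes the reads of the H2A vector were assigned is not given in the sources used here. HIST1H2AD and HIST1H2AK had no count, but 98.0% and 100% of their exonic bases lie within exons of other genes. How RNA was selected is not given either, and its part in the levels of replication-dependent and variant genes was not tested.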
